A study of Homo sapiens and Mus musculus with 7 samples.

Results

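The proteasome genes described here are the 46 genes of the HEL expression table whose symbol is PSM followed by a letter from A to G and a number, out of 14946 gene symbols in all. They were chosen by name and by no measured value. Of these, 17 encode the barrel of the proteasome, its 20S core (PSMA and PSMB genes), and 20 encode its 19S cap or the chaperones that build the cap (PSMC and PSMD genes). A further 5 encode activators and an inhibitor of the core (PSME and PSMF1), and 4 encode core assembly factors (PSMG). PSMA8 and PSMB11, which are known from germ cells and thymus, are not among the rows. The RNA came from HEL cells, a human erythroleukaemia line, in a study of how KAP1 bears on mitophagy in erythroid cells. KAP1, encoded by TRIM28, is a corepressor that KRAB zinc finger proteins bring to chromatin.

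There were 4 groups of 1 library each. These were KAP1 knockdown (KD) cells with hemin at 50 µM for 5 days, KD cells without hemin, control cells with hemin under the same scheme, and control cells without hemin. The sources used here do not say how the knockdown was made or whether the cells were 1 clone or a pool. In the table the control columns carry the name Ctrl, but the sample labels say KAP1 WT; WT is the only HEL genotype beside the knockdown, so the columns were matched to it, and all knockdown ratios depend on that. With 1 library per group, a ratio compares 2 libraries and has no replicate check. In bulk RNA, fewer cells of a type and less RNA per cell cannot be told apart.

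The proteasome degrades proteins that carry a ubiquitin chain. Its 20S core is a barrel of stacked rings, in which PSMA proteins form the outer alpha rings and PSMB proteins the inner beta rings, and PSMB5, PSMB6 and PSMB7 carry the proteolytic sites. The 19S cap binds the ubiquitin chain and removes it, and its ring of PSMC ATPases unfolds the substrate and feeds it into the core; core and cap together are the 26S proteasome. Interferon replaces the catalytic beta subunits by PSMB8, PSMB9 and PSMB10, which gives the immunoproteasome. Genes of the 26S subunits are known to be induced together when the proteasome is inhibited, through the transcription factor NFE2L1 (also called NRF1). Red cell precursors are known to use the ubiquitin and proteasome system to clear proteins as they mature.

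Levels are given in scaled TPM, a value per transcript length that sums to 1000000 per library on average after scaling for depth. Depth was between 23526701 recovered reads on the chosen transcripts, in KD cells without hemin, and 41218729, in KD cells with hemin. TRIM28, the knocked-down gene, stood at 190.2 scaled TPM in KD cells with hemin, 317 in KD cells without hemin, 400.1 in control cells with hemin and 421 in control cells without hemin. It was thus lower in both KD libraries, with log2 ratios to control of -1.07 with hemin and -0.41 without. Its row holds whole numbers, unlike the proteasome rows, so no counting interval could be set on it. How those numbers were made is not given, and the same depth scaling was applied to them. In values left unscaled, the median KD over control ratio of all genes shifts by 0.22 with hemin and -0.58 without. Which state had the stronger knockdown thus rests on that scaling and cannot be told. All 8 erythroid and all 4 megakaryocyte markers examined were among the rows. The erythroid markers, led by the fetal globins HBG2 and HBG1, summed to 59641 and 14233 scaled TPM in KD cells with and without hemin, and to 52594 and 14030 in control cells with and without hemin. Nearly all of that sum was HBG1 and HBG2: the other 6 markers summed to 977 and 1099 scaled TPM in KD cells with and without hemin, and to 1229 and 1434 in control cells with and without hemin. The megakaryocyte markers summed to between 1207 and 2450 scaled TPM, most in control cells without hemin. ITGA2B made up most of that sum, while GP9 was highest in KD cells without hemin and PF4 in KD cells with hemin. None of 3 fibroblast markers was among the rows, nor were the T cell markers CD3D and CD3E or the B cell marker MS4A1, while CD2 and CD79A were. Of 6 short structural RNAs among the rows, RN7SL1, RN7SK, RMRP and RPPH1 were highest in KD cells with hemin, and SCARNA2 and TERC were not. RN7SK stood at 136 scaled TPM there, against 28.0 in KD cells without hemin, 39.2 in control cells with hemin and 22.8 in control cells without hemin. This set was chosen after its values were seen, and its part in the results below was not tested.

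The clearest pattern was in the 31 genes for the subunits of the 26S particle, namely the 7 PSMA genes, PSMB1 to PSMB7, the 6 PSMC genes and 11 PSMD genes. Their median level was 241 scaled TPM in KD cells with hemin, 173 in KD cells without hemin, 266 in control cells with hemin and 145 in control cells without hemin. Control cells with hemin were the highest library for 28 of the 31 genes. Control cells without hemin were the lowest for 24, and KD cells without hemin for the other 7. Both KD libraries therefore lay between the control libraries for most of these genes. The other 15 proteasome genes shared no such order: their highest library was one of the KD libraries for 9 and one of the control libraries for 6. This grouping into 31 and 15 was made after the values were seen.

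**Figure D1:**
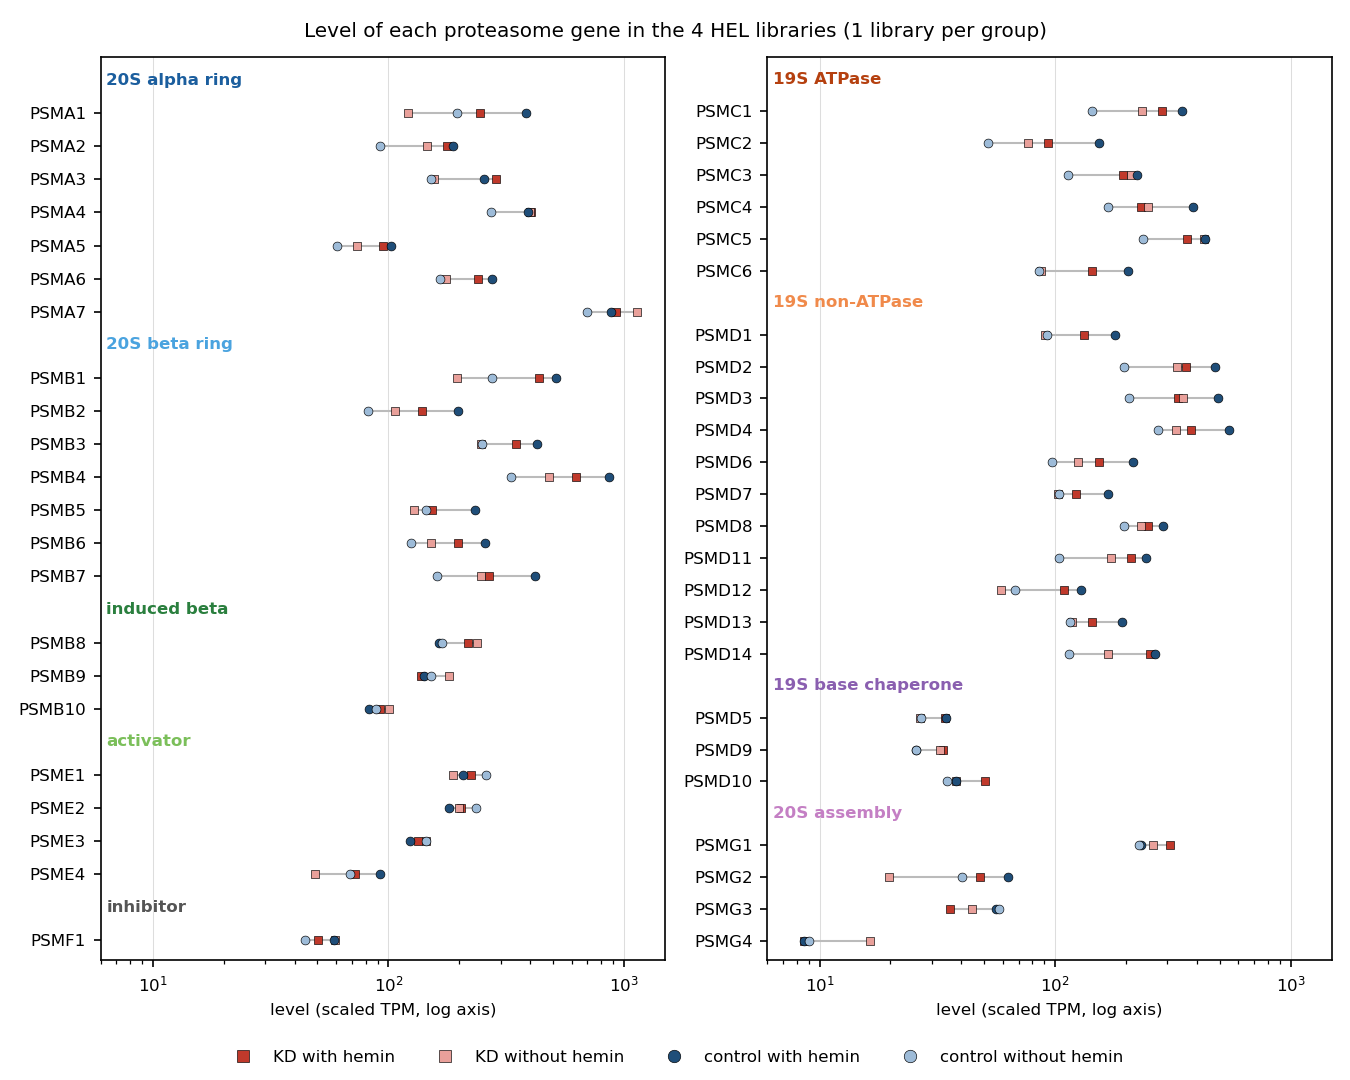
Level of each of the 46 proteasome genes in scaled TPM (log axis) in the 4 HEL libraries, ordered by role; red squares are KD cells and blue circles control cells, darker with hemin, and a grey line joins each gene's lowest and highest library. For 28 of the 31 genes of the 26S subunits the dark blue circle, control with hemin, is furthest right, while the activators and induced beta genes show no such order.

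Because groups of these genes moved together, their promoters were read from RefSeq (build GRCh38.p14), as windows of 300 bases with 250 before the start site and 50 from it on. Of the 46 genes, 40 had a window. Promoters were searched on both strands for 7 motifs, a list chosen with results known. The antioxidant-type element TGACNNNGC, to which NFE2L1 and its relatives bind with small MAF proteins, was in the window of 15 of 40 proteasome genes (37.5%) and of 16.1% of 27305 genes with a window. It was less frequent in the 26S subunit genes, at 7 of 26 (26.9%), than in the others, at 8 of 14 (57.1%), and no test was made of that difference. Of the 24 subunit genes with a window that were at least 1.5-fold higher with hemin in control cells, 6 held it (25%). Of these 6, the 3 with the largest hemin ratios in control cells are shown. Capitals mark the element or its reverse complement.
PSMD3: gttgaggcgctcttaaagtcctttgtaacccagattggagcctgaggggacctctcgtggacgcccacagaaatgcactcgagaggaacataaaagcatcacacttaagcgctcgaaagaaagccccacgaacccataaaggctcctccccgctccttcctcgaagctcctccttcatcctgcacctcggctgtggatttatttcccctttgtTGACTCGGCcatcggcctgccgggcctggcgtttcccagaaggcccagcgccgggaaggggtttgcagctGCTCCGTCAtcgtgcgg
PSMC4: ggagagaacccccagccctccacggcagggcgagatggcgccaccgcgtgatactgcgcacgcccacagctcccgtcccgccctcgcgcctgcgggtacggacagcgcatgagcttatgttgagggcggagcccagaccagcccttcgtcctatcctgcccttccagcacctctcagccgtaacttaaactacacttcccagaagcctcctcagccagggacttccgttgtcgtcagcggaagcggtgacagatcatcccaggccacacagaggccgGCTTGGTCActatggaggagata
PSMD1: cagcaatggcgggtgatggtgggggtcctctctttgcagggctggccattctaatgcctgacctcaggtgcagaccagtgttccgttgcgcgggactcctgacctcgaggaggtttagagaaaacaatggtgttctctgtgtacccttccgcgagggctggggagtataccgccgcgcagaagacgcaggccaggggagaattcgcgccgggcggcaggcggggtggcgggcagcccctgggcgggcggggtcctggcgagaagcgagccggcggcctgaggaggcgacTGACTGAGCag
The windows are chr17:39980557-39980856 on the plus strand for PSMD3, chr19:39970915-39971214 on the plus strand for PSMC4 and chr2:231056617-231056916 on the plus strand for PSMD1. PSMD3 has 2 matches, at -37 and 34 from the start site.

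The letters GAAANNGAA, the core of the interferon-stimulated element, were in the windows of PSMB8, PSMB10, PSME1 and PSME2, 4 of the 5 genes for the induced beta subunits and the interferon-induced activator. They were in 8 of the 40 proteasome genes (20%) and in 9.86% of all genes. The other holders were PSMG4 and 3 of 26 subunit genes (11.5%), PSMA4, PSMB4 and PSMC2. PSMB4 and PSMC2 were at least 1.5-fold higher with hemin in control cells. These 3 windows are shown because the genes stood apart from the subunit genes under hemin; capitals mark those letters or their reverse complement.
PSMB8: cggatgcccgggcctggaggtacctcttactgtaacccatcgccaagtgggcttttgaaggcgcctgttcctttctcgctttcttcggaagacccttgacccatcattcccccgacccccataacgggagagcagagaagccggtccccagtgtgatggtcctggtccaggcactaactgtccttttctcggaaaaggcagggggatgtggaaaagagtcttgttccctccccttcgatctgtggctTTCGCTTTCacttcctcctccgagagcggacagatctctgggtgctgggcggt
PSME1: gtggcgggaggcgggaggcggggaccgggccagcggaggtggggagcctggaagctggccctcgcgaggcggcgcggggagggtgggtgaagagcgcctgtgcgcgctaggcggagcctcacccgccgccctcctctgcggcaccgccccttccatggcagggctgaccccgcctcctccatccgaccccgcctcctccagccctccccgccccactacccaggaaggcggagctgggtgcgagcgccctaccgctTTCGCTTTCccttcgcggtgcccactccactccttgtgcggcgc
PSME2: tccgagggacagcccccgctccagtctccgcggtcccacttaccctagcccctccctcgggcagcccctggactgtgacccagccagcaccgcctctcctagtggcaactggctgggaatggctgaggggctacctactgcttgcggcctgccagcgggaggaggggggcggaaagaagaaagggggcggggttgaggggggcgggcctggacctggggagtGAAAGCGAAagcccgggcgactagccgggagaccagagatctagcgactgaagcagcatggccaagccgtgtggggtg
The windows are chr6:32843998-32844297 on the minus strand for PSMB8, chr14:24135944-24136243 on the plus strand for PSME1 and chr14:24146561-24146860 on the minus strand for PSME2. The remaining motifs were CCGGAAG, in 35% of the proteasome genes and 12.2% of all genes, CCAAT (47.5% and 39.7%), TTCNNNGAA (17.5% and 9.38%), GCGCATGCG (2.5% and 2.34%) and TGACGTCA (0 of 40 and 2.25%). A match describes letters in a window and is not a bound site.

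The alpha ring genes were led by PSMA7 (NM_002792, chromosome 20), which had the highest level of all 46 genes. PSMA7 stood at 923 scaled TPM in KD cells with hemin, 1137 in KD cells without hemin, 885 in control cells with hemin and 696 in control cells without hemin. It is the subunit gene whose highest library was KD cells without hemin. PSMA5 was the lowest alpha gene, at 95.3, 73.8, 102 and 60.6 scaled TPM in the same order of libraries. The proteins stand in equal number in the barrel, while the RNA of the highest alpha gene was 11.5 times that of the lowest in control cells without hemin. PSMA1 (NM_002786, chromosome 11) was the alpha gene set apart by the knockdown, at 245 and 121 scaled TPM in KD cells with and without hemin, against 385 and 196 in control cells with and without hemin. Both KD libraries were thus below the control library of the same treatment, and both hemin libraries above their library without hemin. PSMA3 stood at 287 and 156 scaled TPM in KD cells with and without hemin and at 255 and 152 in control cells with and without hemin, so it differed between hemin and no hemin and little between KD and control cells. PSMA2, PSMA4 and PSMA6 ranged from 91.7 to 404 scaled TPM, each lowest in control cells without hemin.

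Among the beta ring genes, PSMB4 stood at 624 scaled TPM in KD cells with hemin, 479 in KD cells without hemin, 868 in control cells with hemin and 330.4 in control cells without hemin. PSMB7 (NM_002799, chromosome 9), the trypsin-like catalytic subunit, stood at 268, 247, 419.9 and 160.3 scaled TPM in the same order of libraries. For both genes the KD libraries lay between the control libraries and close to each other. PSMB5, the chymotrypsin-like subunit and the target of bortezomib, stood at 154 and 128 scaled TPM in KD cells with and without hemin, and at 233 and 145 in control cells with and without hemin. PSMB6, the caspase-like subunit, stood at 198 and 152 scaled TPM in KD cells with and without hemin, and at 258 and 125 in control cells with and without hemin. PSMB1 (NM_002793, chromosome 6), a structural beta subunit, stood at 436 and 195 scaled TPM in KD cells with and without hemin, and at 514 and 276 in control cells with and without hemin. As for PSMB5, both its KD libraries were below the control library of the same treatment. PSMB2 and PSMB3 ranged from 81.7 to 429.7 scaled TPM and were highest in control cells with hemin.

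The induced beta genes did not share the hemin pattern of the subunits they replace. PSMB8, which replaces PSMB5, stood at 217 and 239 scaled TPM in KD cells with and without hemin, against 164 and 169 in control cells with and without hemin. Its KD libraries were both above its control libraries, and hemin made little difference. PSMB9, which replaces PSMB6, stood at 138 and 180.1 scaled TPM in KD cells with and without hemin, and at 142 and 152 in control cells with and without hemin. PSMB10, which replaces PSMB7, kept between 83.1 and 101 scaled TPM in the 4 libraries. In control cells without hemin PSMB8 stood above PSMB5, at 169 against 145 scaled TPM, and in control cells with hemin below it, at 164 against 233. PSMB8 and PSMB9 lie on chromosome 6 beside the peptide transporter genes, in the order TAP2, PSMB8, TAP1, PSMB9. TAP1 stood at 98.9 and 64.9 scaled TPM in KD cells with and without hemin, against 212 and 163 in control cells with and without hemin, and it fell with the knockdown (limma adjusted p = 3.19e-06). PSMB8, its neighbour, was higher in both KD libraries than in the control library of the same treatment.

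The 19S ATPase genes, whose products form the unfolding ring, had the largest median hemin ratio of the roles in control cells, as given below. PSMC2 (NM_002803, chromosome 7) stood at 93.4 scaled TPM in KD cells with hemin, 77.0 in KD cells without hemin, 153 in control cells with hemin and 51.8 in control cells without hemin. PSMC4 (NM_006503, chromosome 19) stood at 232, 248, 385 and 168 scaled TPM in the same order of libraries. In both genes the control libraries were the extremes. PSMC3 and PSMC5 were nearly as high in KD cells without hemin as in control cells with hemin: PSMC5 stood at 365 and 429 scaled TPM in KD cells with and without hemin, and at 433 and 236 in control cells with and without hemin. PSMC1 stood at 284 and 233 scaled TPM in KD cells with and without hemin, and at 348 and 144 in control cells with and without hemin. PSMC6 stood at 144 and 87.4 scaled TPM in KD cells with and without hemin, and at 203 and 85.7 in control cells with and without hemin. Without hemin its KD and control libraries were thus alike.

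Among the other cap subunits, PSMD2 and PSMD3 gave the strongest contrasts. PSMD2, a scaffold of the cap's base, stood at 359.6 and 330.4 scaled TPM in KD cells with and without hemin, against 476 and 196 in control cells with and without hemin. PSMD3, a lid subunit whose window is shown above, stood at 332 and 350.1 scaled TPM in KD cells with and without hemin, and at 492 and 205 in control cells with and without hemin. With hemin over no hemin they were 1.09-fold and 0.95-fold in KD cells and 2.43-fold and 2.39-fold in control cells. PSMD12, another lid subunit, stood at 109.6 and 59.2 scaled TPM in KD cells with and without hemin, and at 129 and 67.7 in control cells with and without hemin, so its hemin contrast was alike in both. PSMD14, the deubiquitinase that removes the chain from the substrate, stood at 253 and 168 scaled TPM in KD cells with and without hemin, and at 266 and 115 in control cells with and without hemin. PSMD4, a ubiquitin receptor, stood at 379 and 326 scaled TPM in KD cells with and without hemin, and at 550.4 and 274 in control cells with and without hemin. Its 550.4 was the highest level of a cap gene in any library. PSMD1, PSMD6, PSMD7, PSMD8, PSMD11 and PSMD13 ranged from 90.9 to 287 scaled TPM, all highest in control cells with hemin.

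The chaperones of the cap's base were low and varied little. PSMD5, PSMD9 and PSMD10 (gankyrin) stood between 25.7 and 50.4 scaled TPM. PSMD10 stood at 50.4 scaled TPM in KD cells with hemin, 37.9 in KD cells without hemin, 37.9 in control cells with hemin and 34.8 in control cells without hemin. PSMD9 stood at 33.5 and 32.4 scaled TPM in KD cells with and without hemin, against 25.7 and 25.8 in control cells with and without hemin, so it was higher in both KD libraries and nearly equal with and without hemin.

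The activators did not share 1 course. PSME1 and PSME2 encode the 2 chains of the interferon-induced activator PA28. PSME1 stood at 225 and 188 scaled TPM in KD cells with and without hemin, and at 208 and 259 in control cells with and without hemin. PSME2 stood at 202 and 200.4 scaled TPM in KD cells with and without hemin, and at 181 and 236 in control cells with and without hemin. Both were highest in control cells without hemin, the library in which most subunit genes were lowest. PSME3, the nuclear activator, kept between 124 and 144 scaled TPM. PSME4, the activator PA200, stood at 72.5 and 48.7 scaled TPM in KD cells with and without hemin, and at 92.1 and 68.8 in control cells with and without hemin. Like most subunit genes it was highest in control cells with hemin. PSMF1, known in vitro as the inhibitor PI31, stood at 50.4 and 59.4 scaled TPM in KD cells with and without hemin, and at 58.9 and 44.1 in control cells with and without hemin. PSMF1 was, as were most subunit genes, lowest in control cells without hemin.

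The assembly factors act in pairs, PSMG1 with PSMG2 and PSMG3 with PSMG4, and the genes of a pair did not share an order of libraries. PSMG1 stood at 308 and 261 scaled TPM in KD cells with and without hemin, and at 232 and 227 in control cells with and without hemin. PSMG2 (NM_020232, chromosome 18) stood at 48.2 and 19.7 scaled TPM in KD cells with and without hemin, against 63.0 and 40.3 in control cells with and without hemin. PSMG1 was thus higher, and PSMG2 lower, in both KD libraries than in the control library of the same treatment. PSMG3 stood at 35.9 and 44.4 scaled TPM in KD cells with and without hemin, and at 55.9 and 57.7 in control cells with and without hemin. PSMG4 stood at 8.58 and 16.4 scaled TPM in KD cells with and without hemin, and at 8.56 and 9.01 in control cells with and without hemin. PSMG4 rested on 59 to 79 recovered reads per library, the fewest of any member.

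In control cells nearly all 26S subunit genes were higher with hemin. Of the 46 proteasome genes, 29 were at least 1.5-fold higher in control cells with hemin than without and 0 were lower by that much, against 9.23% higher and 8.22% lower among 10800 genes. The 29 were 28 of the 31 subunit genes and PSMG2. The median log2 ratio was 0.98 over the 31 subunit genes, 0.75 over all 46, -0.05 over the other 15 and -0.01 over all genes. By role, all 6 ATPase genes passed 1.5-fold (median 1.22), 10 of 11 non-ATPase cap genes (1.01), 7 of 7 beta genes (1.04) and 5 of 7 alpha genes (0.74). None of the 3 induced beta genes, 4 activators, 3 base chaperones or PSMF1 did. The exceptions among the subunits were PSMA4, PSMA7 and PSMD8, with log2 ratios of 0.52, 0.35 and 0.55.

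PSMC2 had the largest ratio, 2.94-fold or a log2 ratio of 1.56 (95% counting interval 1.498 to 1.632). It was followed by PSMB4 at 1.39 (1.35 to 1.44), PSMB7 at 1.39 (1.33 to 1.45), PSMD2 at 1.28 (1.25 to 1.32) and PSMC1 at 1.27 (1.22 to 1.33). Furthest down were PSME2 at -0.38 (-0.46 to -0.31), PSME1 at -0.32 (-0.38 to -0.25), PSME3 at -0.22 (-0.27 to -0.17), PSMB9 at -0.09 (-0.17 to -0.01) and PSMB10 at -0.09 (-0.20 to 0.02). These intervals cover counting error only and not the spread between cultures. The erythroid marker sum was also higher with hemin in the same libraries, through HBG1 and HBG2 and not through the sum of the other 6 markers, and its part in the subunit ratios was not tested.

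In KD cells the hemin ratio was smaller than in control cells for 28 of the 31 subunit genes, and larger for PSMA1, PSMA3 and PSMB1. Of the 46 genes, 7 were at least 1.5-fold higher with hemin than without and 1 was lower, against 12.1% higher and 10.7% lower among 10825 genes. Members past 1.5-fold upward were thus 15.2% of the list, close to the share of all genes. The median log2 ratio was 0.28 over the 31 subunit genes and 0.00 over all genes, and 26 of the 31 were above 0. Furthest up were PSMG2 at 1.27 (1.02 to 1.58), PSMB1 at 1.16 (1.09 to 1.23), PSMA1 at 1.02 (0.94 to 1.09), PSMD12 at 0.88 (0.80 to 0.98) and PSMA3 at 0.87 (0.79 to 0.95). Furthest down were PSMG4 at -0.89 (-1.41 to -0.46), PSMB9 at -0.38 (-0.46 to -0.30), PSMG3 at -0.30 (-0.49 to -0.12), PSMA7 at -0.30 (-0.33 to -0.27) and PSMF1 at -0.24 (-0.31 to -0.17). In the unscaled deposited values, which still carry the depth of each library, the split was 44 higher and 0 lower, but the median of all genes then moved by 0.95.

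The 7 genes past 1.5-fold upward in both backgrounds were PSMA1, PSMA3, PSMB1, PSMC6, PSMD12, PSMD14 and PSMG2, against 2.76% of 10465 genes. The ratios were nearly equal in KD and control cells for PSMA1 (1.02 and 0.97) and PSMD12 (0.88 and 0.92), while PSMC6 (0.71 and 1.24) and PSMD14 (0.59 and 1.21) had the smaller one in KD cells. PSMG2 (1.27 and 0.64), PSMB1 (1.16 and 0.90) and PSMA3 (0.87 and 0.74) had the larger one in KD cells. Across the 31 subunit genes the hemin ratios in KD and in control cells, which share no library, had a Pearson r of 0.07. It was 0.39 across the 46 proteasome genes and 0.42 across 11160 genes. These are descriptions over genes, which are not independent replicates.

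**Figure D2:**
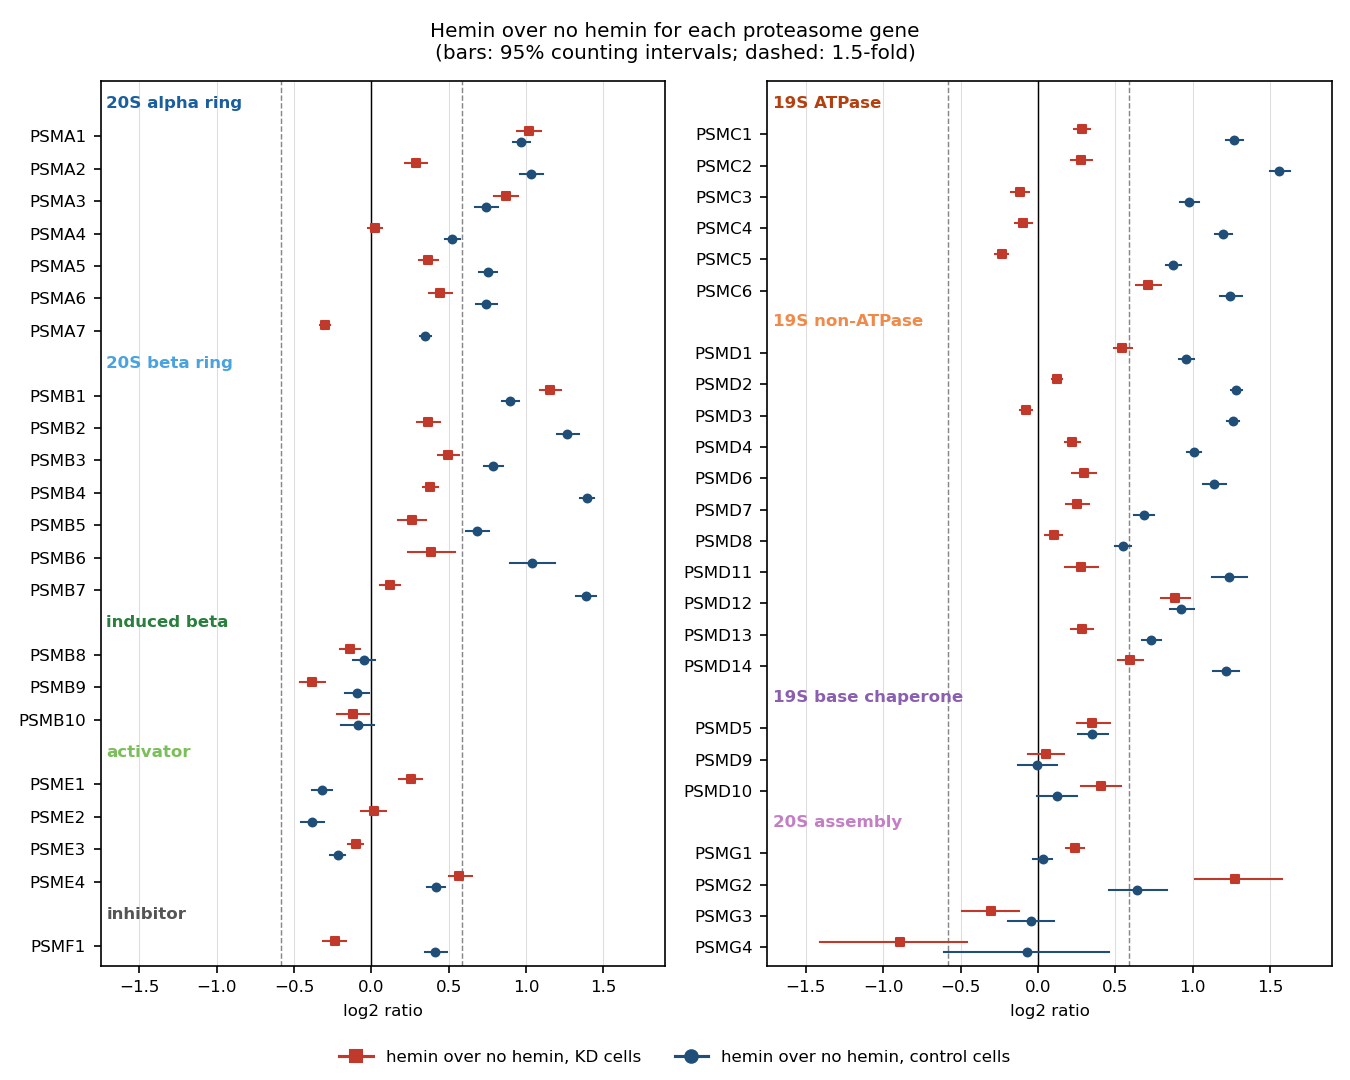
Log2 ratio of hemin over no hemin for each proteasome gene, by role, in KD cells (red squares) and in control cells (blue circles); bars are 95% counting intervals and dashed lines mark 1.5-fold. The blue points of the 26S subunit genes lie between 0.35 and 1.56, while 25 of their 31 red points lie left of the dashed line on the right; the induced beta genes and activators lie within the dashed lines in both, with PSME4 at 0.57 in KD cells nearest to them.

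Without hemin, the subunit genes had a median above that of all genes in KD cells relative to control cells, and 9 of the 31 were at least 1.5-fold higher. Of the 46 genes, 10 were at least 1.5-fold higher in KD cells and 2 were lower, against 17.8% higher and 17.1% lower among 10877 genes. The share of members past the limit upward, 21.7%, was thus near that of all genes. The 10 were 6 cap genes, PSMA2, PSMA7, PSMB7 and PSMG4, and the 2 lower ones were PSMA1 and PSMG2. The median log2 ratio was 0.55 over the 17 cap subunit genes, 0.28 over the 14 core genes, 0.12 over the other 15 and 0.03 over all genes. Furthest up were PSMC3 at 0.89 (0.82 to 0.96), PSMC5 at 0.86 (0.81 to 0.91), PSMG4 at 0.83 (0.36 to 1.37), PSMD3 at 0.77 (0.72 to 0.81) and PSMD2 at 0.75 (0.72 to 0.79). Furthest down were PSMG2 at -1.02 (-1.33 to -0.74), PSMA1 at -0.70 (-0.78 to -0.62), PSMB1 at -0.50 (-0.58 to -0.42), PSME4 at -0.49 (-0.58 to -0.42) and PSME1 at -0.46 (-0.53 to -0.38). The split depended on the scaling. It was 16 higher and 1 lower with plain library totals, 5 and 5 with a trend on transcript length removed (median 0.045 over the 46 genes, with 4 of the 31 subunit genes higher and 2 lower), and 0 and 13 in the unscaled deposited values.

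With hemin the order was turned, and KD cells had less RNA of the subunit genes than control cells. Of the 46 genes, 0 were at least 1.5-fold higher in KD cells and 6 were lower, against 15.0% higher and 12.8% lower among 10902 genes. The members past the limit downward, 6 of 46, were near the share of all genes, but 28 of the 31 subunit genes had a ratio below 0. Their median log2 ratio was -0.38, against 0.11 over the other 15 genes and 0.01 over all genes. The 6 genes past the limit were PSMC4 at -0.73 (-0.78 to -0.69), PSMC2 at -0.71 (-0.76 to -0.66), PSMA1 at -0.65 (-0.70 to -0.60), PSMB7 at -0.65 (-0.70 to -0.60), PSMG3 at -0.63 (-0.79 to -0.48) and PSMB5 at -0.60 (-0.67 to -0.53). Furthest up were PSMG1 at 0.41 (0.36 to 0.46), PSMD10 at 0.41 (0.30 to 0.52), PSMB8 at 0.40 (0.34 to 0.47), PSMD9 at 0.38 (0.27 to 0.49) and PSMA3 at 0.17 (0.11 to 0.23). PSMA1 was the only member past 1.5-fold the same way with and without hemin; with plain library totals its ratios were -0.55 and -0.58, both short of it. With the deposited values the split of the 46 genes was 4 higher and 0 lower.

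The scalings moved all genes together. Plain library totals shifted the median of all genes by 0.10 with hemin and 0.11 without, and the deposited values shifted it by 0.22 and -0.58. Relative to that median, the 31 subunit genes stood at -0.38 with hemin under all 3 scalings. Without hemin they stood at 0.34 with TMM scaling, 0.34 with plain totals and 0.35 with the deposited values. A scaling multiplies each library by 1 constant, so these relative values could hardly differ. Other settings can move them. Without hemin they were 0.23 with the length trend removed, 0.25 with summed transcripts and 0.26 with the transcript of most reads. With hemin those settings gave -0.43, -0.38 and -0.38.

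**Figure D3:**
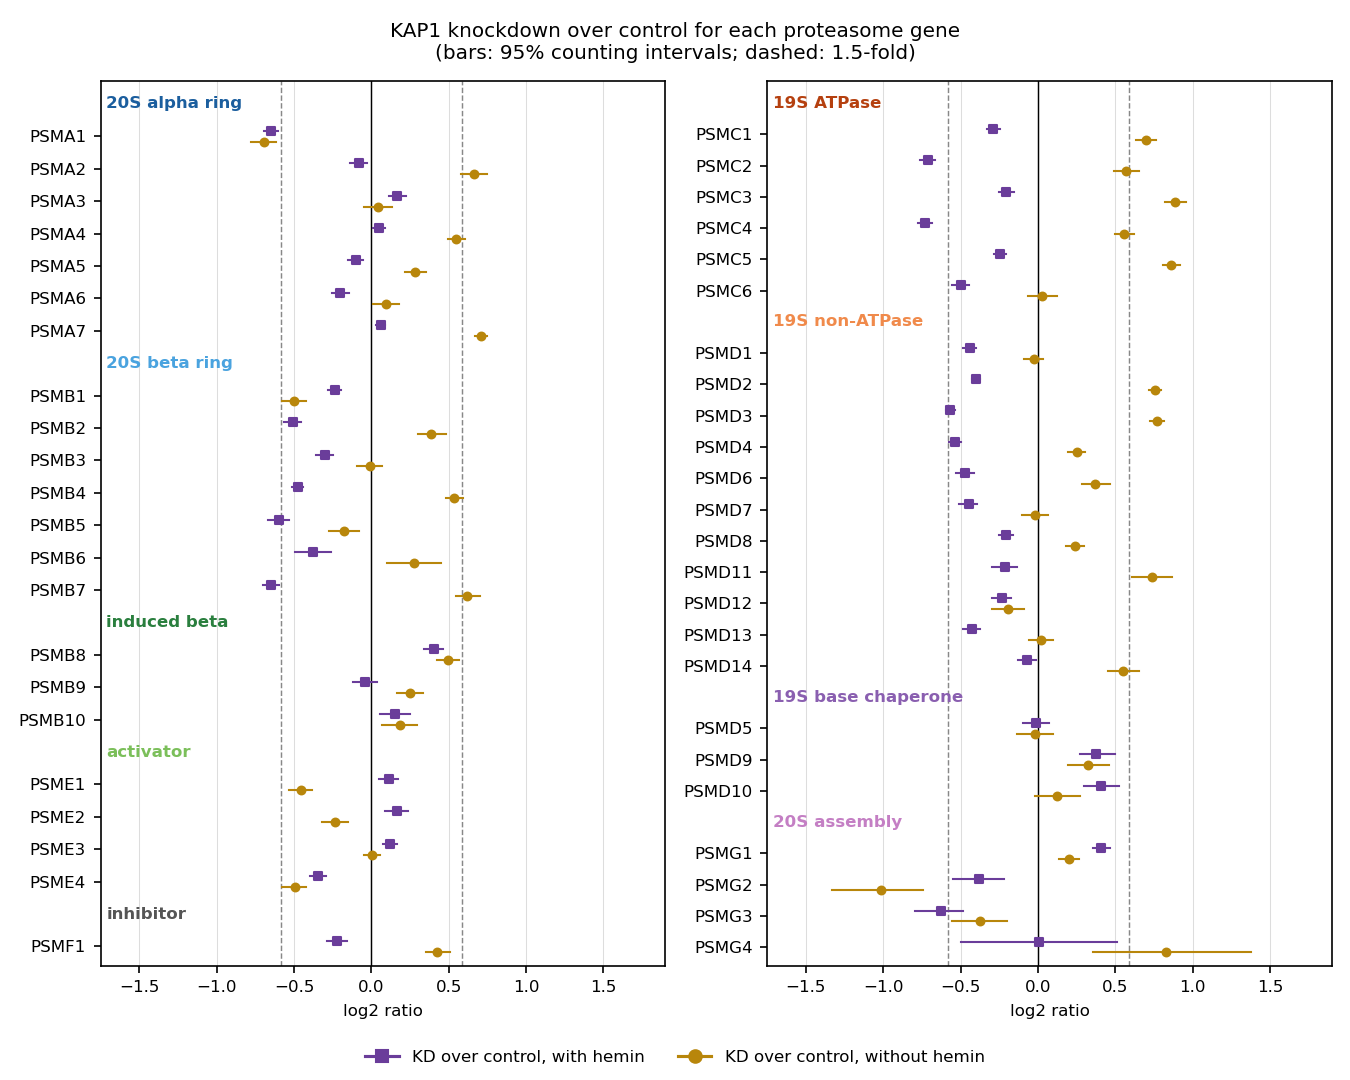
Log2 ratio of KAP1 knockdown over control for each proteasome gene, by role, with hemin (purple squares) and without hemin (gold circles); bars are 95% counting intervals and dashed lines mark 1.5-fold. For most subunit genes the purple point lies left of 0 and the gold point right of it, while PSMA1 and PSMG2 lie left of 0 in both.

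**Figure D4:**
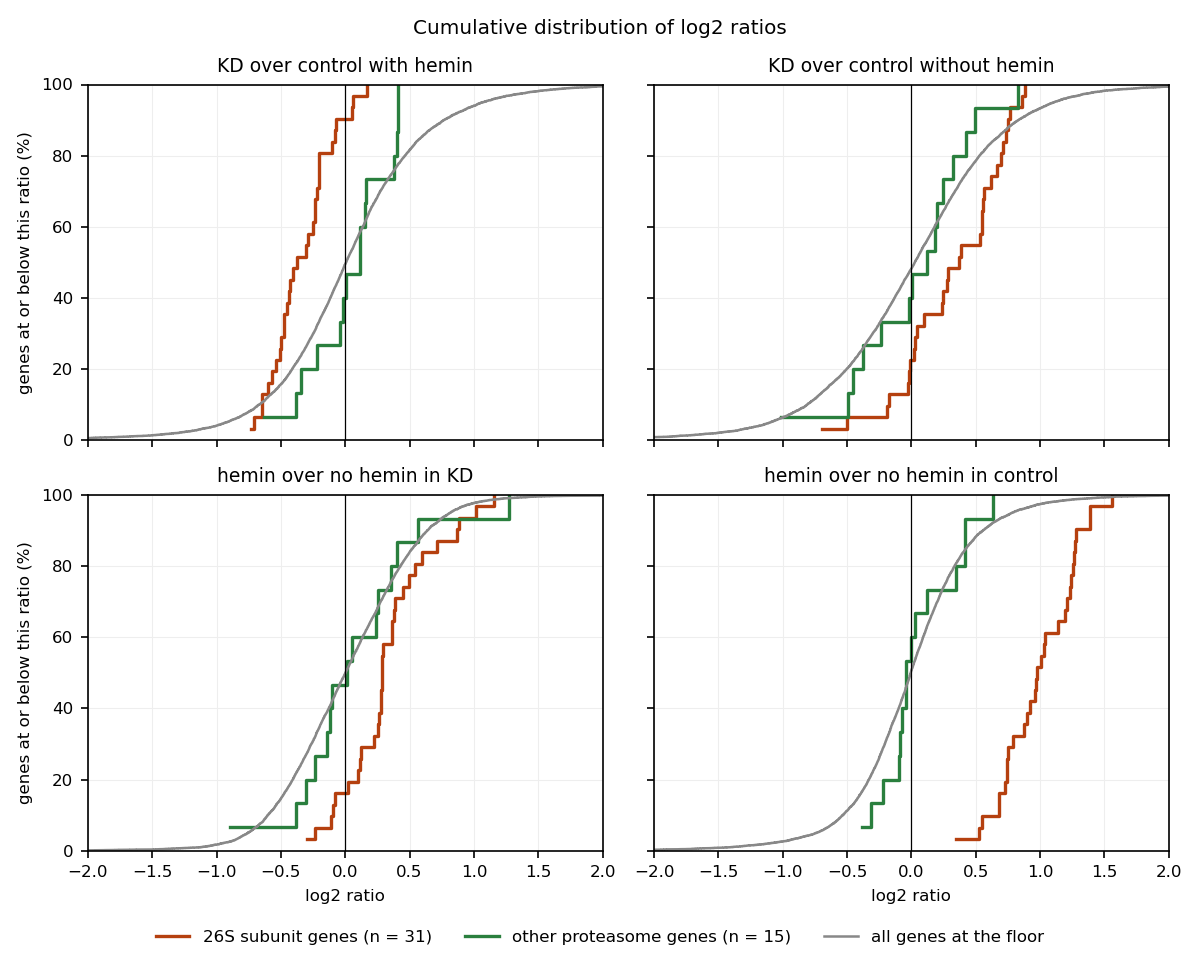
Percent of genes at or below each log2 ratio, in the 4 comparisons, for the 31 genes of the 26S subunits (orange), the other 15 proteasome genes (green) and all genes at the floor of 5 scaled TPM (grey). Over most of its length the orange curve lies left of the grey one for KD over control with hemin and right of it in the other panels, furthest for hemin in control cells, where its median is 0.98; the green curve stays near the grey one.

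The knockdown ratio therefore had opposite signs with and without hemin in many subunit genes. In 20 of the 46 genes it was below 0 with hemin and above 0 without, with both counting intervals clear of 0; 19 of these encode 26S subunits and the other is PSMF1. PSME1 and PSME2 showed the reverse, with log2 ratios of 0.11 and 0.16 with hemin and -0.46 and -0.23 without. The difference between the hemin responses, KD minus control, passed 1.5-fold downward in 19 genes and upward in 1, PSMG2, against 12.1% and 13.1% of 11160 genes. It was -0.65 in the median over the 31 subunit genes, of which 17 passed, and 0.01 over all genes. The cap genes made up 11 of the 17, with a median of -1.10 over the ATPases. The furthest were PSMD3 at -1.33 (-1.39 to -1.28), PSMC4 at -1.29 (-1.37 to -1.21), PSMC2 at -1.28 (-1.37 to -1.18), PSMB7 at -1.27 (-1.36 to -1.18) and PSMD2 at -1.16 (-1.20 to -1.11). At the other end stood PSMG2 at 0.63 (0.30 to 0.96) and PSME1 at 0.57 (0.47 to 0.67). PSMD3 and PSMC4 hold TGACNNNGC in the windows shown above, which were chosen by the hemin ratio in control cells, a term of this difference. The other subunit genes that hold it had differences of -1.11 (-1.17 to -1.04) for PSMC5 and -0.50 (-0.57 to -0.43) for PSMA4. For PSMD1 the difference was -0.41 (-0.49 to -0.34), for PSMB3 -0.29 (-0.38 to -0.20) and for PSMD12 -0.04 (-0.16 to 0.08). The windows of PSMC2 and PSMD2 do not hold it, and a link between element and difference was not tested. With the deposited values the split was 15 higher and 0 lower. Relative to the median of all genes the subunit genes then stood at -0.64, against -0.66 with TMM scaling. A constant per library leaves that relative value nearly fixed. With the length trend removed it was -0.55. The difference between the hemin responses rests on 4 libraries with no replicate, and this comparison was added after the values were seen.

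**Figure D5:**
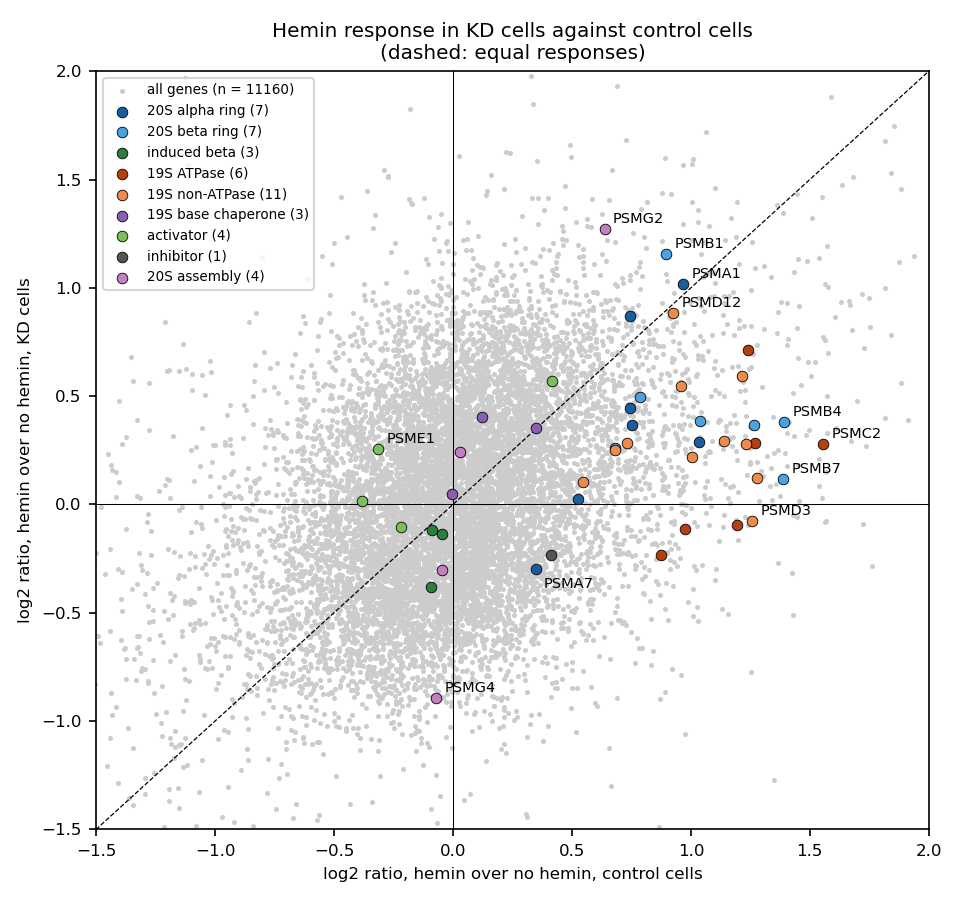
Log2 ratio of hemin over no hemin in KD cells (vertical) against that in control cells (horizontal) for the 46 proteasome genes, coloured by role, over 11160 genes in grey, of which 156 lie beyond the axes; the dashed line marks equal responses. Most subunit genes lie to the right of and below the line, with PSMC2 furthest right at 1.56 and PSMD12 only just below it. PSMA1, PSMA3, PSMB1 and PSMG2 lie above the line.

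A secondary additive model fitted with limma to all 4 libraries, with knockdown and hemin as terms, gave the only p-values. Its single residual degree of freedom is the interaction itself, and it pools the spread over all genes, so its p-values rest on that pooling. The prior degrees of freedom were infinite, so a gene's own interaction carried no weight in its p-value. For hemin, 17 members rose and 0 fell, against 3.02% and 2.92% of 11160 genes: PSMA1, PSMA3, PSMB1, PSMB2, PSMB4, PSMB6, PSMB7, PSMC1, PSMC2, PSMC6, PSMD1, PSMD2, PSMD6, PSMD11, PSMD12, PSMD14 and PSMG2. The hemin term was largest for PSMB1, at 1.03 (limma adjusted p = 0.000203), and for PSMA1, at 0.99 (limma adjusted p = 0.000534). That term averages over KD and control cells, so a call does not mean a like ratio in both. Hemin log2 ratios in KD and control cells were 1.02 and 0.97 for PSMA1, but 0.12 and 1.39 for PSMB7. For the knockdown, 0 members rose and 2 fell, against 12.1% and 10.1% of all genes. These were PSMG2, at -0.70 ± 0.24 (SE, limma adjusted p = 0.0188), and PSMA1, at -0.67 ± 0.22 (SE, limma adjusted p = 0.0151). With plain library totals the hemin term called 10 members in place of 17. An ordinary model without pooling called none of the members in either term, and 3 members for hemin and 2 for the knockdown had an unadjusted p under 0.05 there. The 2 knockdown calls were also lost with plain library totals and when the spread was pooled without a trend on expression, and a lost call does not show that the values were alike.

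The wider ubiquitin and proteasome pathway was read from a list of 41 genes outside the name rule, chosen with results known. In KD cells 11 of the 41 were at least 1.5-fold higher with hemin and 2 lower (26.8% and 4.88%), against 12.1% and 10.7% of all genes. In control cells 9 were higher with hemin and 0 lower (22.0% and none), against 9.23% and 8.22% of all genes. For KD over control with hemin, 0 were higher and 7 lower (17.1%), against 15.0% and 12.8% of all genes. Without hemin 4 were higher and 7 lower (9.76% and 17.1%), against 17.8% and 17.1% of all genes. In the limma model 8 rose and 0 fell with hemin, against 3.02% and 2.92% of all genes, and 2 rose and 6 fell with the knockdown, against 12.1% and 10.1%. Of the 8 other subunit, cap partner and assembly genes on the list, TXNL1, KIAA0368 and USP14 rose with hemin (limma adjusted p = 0.00313, 0.0096 and 0.0375) and none fell. ADRM1, a ubiquitin receptor of the cap, stood at 335 and 413 scaled TPM in KD cells with and without hemin, against 341 and 168 in control cells with and without hemin. SHFM1 (also SEM1), a small lid subunit, stood at 286 and 429 scaled TPM in KD cells with and without hemin, and at 241 and 172 in control cells with and without hemin. The knockdown term was called upward for both (limma adjusted p = 0.0214 and 0.00329), and both were highest in KD cells without hemin. That term averages over hemin: the log2 ratios of KD over control were -0.03 with hemin and 1.30 without for ADRM1, and 0.25 and 1.32 for SHFM1. UCHL5, a deubiquitinase of the cap, kept between 61.1 and 80.0 scaled TPM. POMP, which completes core assembly, stood at 152 and 80.5 scaled TPM in KD cells with and without hemin, and at 123 and 91.9 in control cells with and without hemin.

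UFD1L, a partner of the segregase VCP that delivers substrates, followed the subunits: it stood at 59.6 and 56.2 scaled TPM in KD cells with and without hemin, against 82.6 and 28.1 in control cells with and without hemin. It rose with hemin (limma adjusted p = 0.0163). NFE2L1 itself did not follow the subunits in its RNA, and its protein and activity were not measured here. It stood at 51.9 and 71.1 scaled TPM in KD cells with and without hemin, and at 74.2 and 96.5 in control cells with and without hemin, lowest in KD cells with hemin. Its small MAF partner MAFG stood at 88.2 and 66.3 scaled TPM in KD cells with and without hemin, and at 186 and 79.0 in control cells with and without hemin; it rose with hemin and fell with the knockdown (limma adjusted p = 0.0117 and 0.022). BACH1, a heme-binding repressor that uses the same MAF partners, stood at 65.7 and 37.7 scaled TPM in KD cells with and without hemin, against 114 and 75.5 in control cells with and without hemin. BACH1 rose with hemin and fell with the knockdown (limma adjusted p = 0.0496 and 0.00137). Of the antigen processing genes on the list, TAP1, B2M and IRF1 were at least 1.5-fold lower in KD cells than in control cells without hemin.

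For 21 members more than 1 transcript was listed. Transcripts of a gene share reads, and their log2 ratios spanned 0.02 to 0.07 in the median gene, depending on the comparison. The widest spans were 0.69 for PSMG4, in KD over control with hemin, and 0.40 for PSMB2, in KD over control without hemin. Recovered reads per member and library ran from 59 to 25911, and the median counting interval of a member was 0.137 wide on the log2 scale.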

How the data were processed

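The authors deposited RPKM values, 1 per RefSeq transcript, per the file headers. The submitters' processing notes name Bowtie and hg19. Other steps and the strand setting: not given in the sources used here. No value was 0. The deposited RPKM values were not scaled to depth, although the design had assumed so. Whole numbers that fit as reads were found for 24533 of 24533 rows without whole numbers, within 0.0002 reads plus a relative precision of 4e-09. The smallest fitting numbers were taken as recovered reads. Where the true reads of a row share a common divisor, its reads are understated and its counting intervals too wide. Values were divided by effective read totals from the trimmed mean of log ratios (TMM, trims 0.3 and 0.05), with factors between 0.964 and 1.03, and set to a mean library sum of 1000000, which is called scaled TPM here. Recovered reads per library numbered 41218729 and 23526701 in KD cells with and without hemin, and 37148383 and 33527750 in control cells with and without hemin.

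For each gene the transcript of highest mean value was used, and a transcript listed under several symbols was kept under RefSeq's symbol, which left 14919 genes. Before taking log2, 0.5 was added to scaled TPM as a pseudocount, so changes of low genes are understated. A gene entered a comparison when its higher library reached 5 scaled TPM, as all 46 members did in every comparison. Counts use a limit of 1.5-fold, a log2 ratio of 0.585. Counting intervals are exact conditional binomial intervals at 95% on the recovered reads. Reads, with no molecular identifiers, need not be independent molecules. The additive model used limma 3.58.1 in R 4.3.3 with a trend and Benjamini-Hochberg adjustment at 0.05 over 11160 genes. It was run on simulated data that held no interaction. That run cannot show whether the p-values hold where knockdown and hemin interact. Promoters were searched with Python 3.11.15.

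Members, lists, motifs and tests were chosen with earlier results of these data known. The text names, per comparison, the 5 members furthest up and the 5 furthest down, those past 1.5-fold in both states, and every activator, inhibitor and assembly gene; other members are named by role. Alternatives were other scalings, pseudocounts, floors, transcripts and limits. The chromatin libraries of the series were not used here. A few genes are not reported here.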

Additional observations from a re-analysis of the deposited data

Results flagged for a closer look

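PSMB7, the trypsin-like catalytic subunit, lay past 1.5-fold in opposite directions with and without hemin. Its log2 ratio of KD over control was -0.65 with hemin and 0.62 without. It was singled out because the knockdown ratio has opposite signs in the 2 states, each past the limit. With plain library totals the ratios were -0.55 with hemin, short of the limit, and 0.73 without; with a trend on transcript length removed they were -0.79 with hemin and 0.38 without, the second short of it. In the unscaled deposited values they were -0.43 and 0.042. With 1 library per group the difference was not tested against any spread between cultures.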

How the results depend on the processing

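Counts are of the 46 proteasome genes, higher then lower, and medians are log2 ratios over them. The limit of 2-fold gave 0 lower for KD over control with hemin, 0 and 1 without hemin, 3 and 0 for hemin in KD cells, 15 higher for hemin in control cells, and 0 and 8 for the difference of the hemin responses. Plain library totals gave 2 lower and a median of -0.14 for KD over control with hemin, 16 and 1 and a median of 0.36 without. The deposited values as they stand, which carry depth, gave 4 and 0 with a median of -0.021 for KD over control with hemin, 0 and 13 with -0.33 without, 44 and 0 with 1.22 for hemin in KD cells, a median of 0.91 for hemin in control cells, and 15 and 0 with 0.36 for the difference of responses. They also turned the sign of PSMG4 for hemin in KD cells (0.021) and of the difference of responses for PSMA2 (0.047), PSMA7 (0.15), PSMB6 (0.14), PSMD4 (0.0086), PSMD14 (0.17) and PSMF1 (0.14). A floor of 20 scaled TPM, which leaves PSMG4 out, gave 0 lower for hemin in KD cells. Summing transcripts gave 2 higher for the difference of responses, as did removing the length trend, chosen after seeing the data as a running median over 1001 genes. Its other values were medians of -0.32 and 0.045 for KD over control with and without hemin, with 5 and 5 genes without, and 0.35 for hemin in KD cells. The pseudocounts of 0.1 and 2, no floor and equal medians moved none of these counts or medians by that much.

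In the additive limma model the knockdown calls downward were 0 with plain totals, deposited values, no pooling and no trend, and 1 with no floor. The hemin calls upward were 10 with plain totals, equal medians or the transcript with the most reads, 7 with no floor, 6 with no trend, and 0 with deposited values or no pooling. The cause was not tested, beyond the depth that the deposited values carry. Without pooling 1124 of 11160 genes for the knockdown and 804 for hemin had an unadjusted p under 0.05, and none passed after adjustment. No paired analysis was possible because each group is 1 library. Leaving out a library was not run, since 3 libraries leave no residual degree of freedom for the additive model and remove 1 side of 2 comparisons. Recovered reads were fewest for PSMG4, whose interval was -1.41 to -0.46 for hemin in KD cells.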
